A study of Mus musculus with 36 samples.

Results

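The 9 genes described here encode 6 matrix metalloproteinases (Mmp2, Mmp9, Mmp12, Mmp13, Mmp14 and Mmp19) and 3 of their tissue inhibitors (Timp1, Timp2 and Timp3). They were chosen by symbol among the 24421 genes counted, and all 9 passed the filter on low counts in every fit. Liver RNA was sequenced from 36 male C57BL/6J mice, 1 library a mouse. All of the mice, bought at 7 weeks of age, had eaten CDAHFD, a high-fat diet of defined L-amino acids that lacks choline and brings on steatohepatitis with fibrosis, for 12 weeks, and no mice without that diet were compared here. They then received subcutaneous injections of Fc(mML1)B3, an antibody Fc fragment that carries a peptide binding the receptor Met in its B3 loops and was designed as a mimetic of hepatocyte growth factor, or of plain Fc. Under a choline-containing high-fat diet (HFD), 10 mice got Fc at 4.3 mg/kg and 10 got Fc(mML1)B3 at 5 mg/kg, once a week for 2 weeks. Under a standard diet, 9 mice got Fc at 4.3 mg/kg and 7 got Fc(mML1)B3 at 5 mg/kg, on days 1, 4 and 7, and were killed after 10 days. The diets were thus given in separate experiments of different length and dosing, and diet cannot be told apart from these.

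Matrix metalloproteinases are zinc-dependent enzymes that cleave collagens and other matrix proteins, and most are made as inactive proenzymes. TIMPs bind their active site and block them. In the injured liver, stellate cells and myofibroblasts lay down collagen and are a known source of Mmp2, Timp1 and Timp2, whereas macrophages are a known source of Mmp12, Mmp13 and Mmp9, and the balance of proteinases and TIMPs bears on whether scar is kept or removed. RNA levels do not show enzyme activity, which depends on activation and inhibition of the protein.

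The libraries held 14949035 to 28466853 counted reads, with a median of 23558194.5. Among 147 pairs of libraries of the same group none was alike within counting noise, with a chi-square of 6.3 or more per degree of freedom. All 6 hepatocyte markers had a median of at least 1 CPM (a gene's counts scaled by library size) in every group, as the label liver calls for. The library of Fc(mML1)B3 mouse 5 under the HFD stood apart from the other 9 of its group. It had the group's lowest summed level of the 6 hepatocyte markers, 69040 CPM, and its highest summed levels of the 10 stellate cell and myofibroblast markers, 978.9 CPM, of the 11 macrophage markers, 1262 CPM, and of the 5 cholangiocyte markers, 168.5 CPM. It stood furthest apart in the 4 mesothelial markers, whose sum was 69.88 CPM against a group median of 14.38 CPM and a next highest of 25.28 CPM. Its neutrophil sum, 19.92 CPM, was the highest and its endothelial sum, 190 CPM, the lowest of the group. Among Fc livers under the HFD, mice 7 and 8 had neutrophil sums over 9 genes of 80.02 and 81.81 CPM, against 6.488 to 17.61 CPM in the other 8, and the 2 highest macrophage sums, 1334 and 1515 CPM. Fc mouse 5 under the standard diet had a neutrophil sum of 76.4 CPM. Values without these libraries are given beside the results that moved most.

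Per length, Mmp12 had the highest mean level of the 9 genes and Mmp9 the lowest. The mean RPKM (CPM per kilobase of exon) over the 36 livers was 35.8 for Mmp12, the elastase of macrophages. It was 19.0 for Mmp14, a membrane-bound proteinase that activates pro-MMP2, 17.7 for Timp2, which takes part in that activation, and 17.3 for Timp3, the matrix-bound inhibitor that also blocks ADAM17. It was 13.8 for Mmp19, a secreted proteinase that cleaves basement membrane proteins, and 8.02 for Mmp2, the gelatinase A. Timp1, the TIMP best known for its induction in liver fibrosis, followed at 3.26, the collagenase Mmp13 at 0.731 and the gelatinase Mmp9 at 0.344. The ends of this order were clear in single livers and its middle was not. Mmp12 lay above Mmp14 in 35 of 36 livers, and Mmp2 above Timp1 and Timp1 above Mmp13 in all 36. Timp2 lay above Timp3 in 18 of 36 livers and Timp3 above Mmp19 in 21 of 36, but these orders differed between groups. Under the HFD the median RPKM of Timp3 and Mmp19 was 22.6 and 9.12 in Fc livers and 19.0 and 12.6 in Fc(mML1)B3 livers. Under the standard diet it was 10.8 and 16.5 in Fc livers and 13.7 and 18.25 in Fc(mML1)B3 livers. Under that diet Timp2 had a median of 12.8 in Fc livers, above Timp3, and of 12.4 in Fc(mML1)B3 livers, below Timp3. Mmp14 lay above Timp2 in 25, Mmp19 above Mmp2 in 29 and Mmp13 above Mmp9 in 34 of 36 livers.

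**Figure D1:**
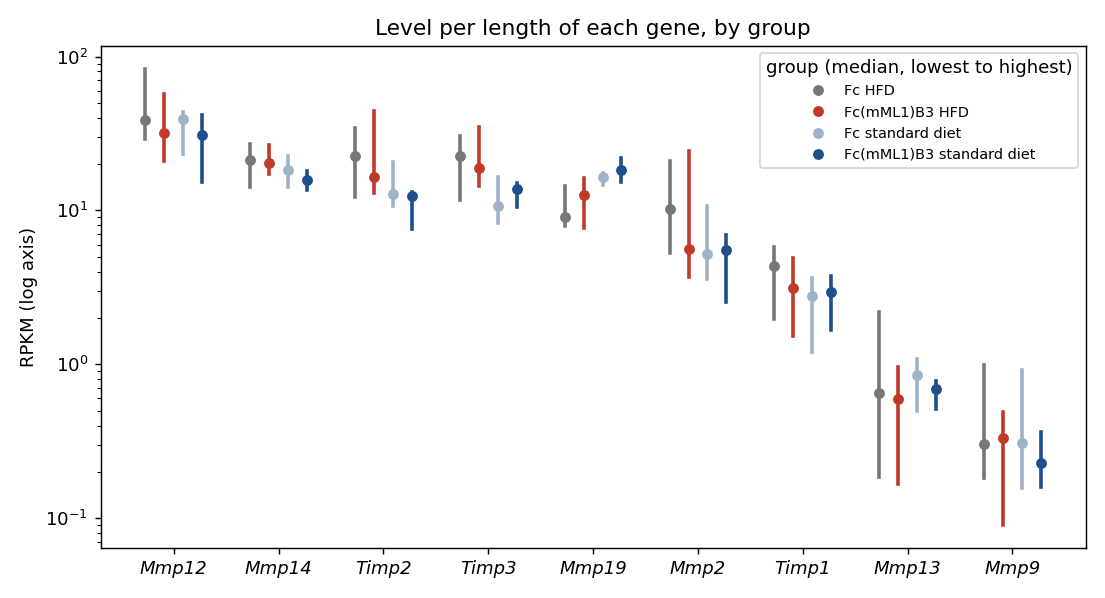
Level of each gene in RPKM on a log axis, ordered by the mean over 36 livers; each point is the median of a group and each line runs from its lowest to its highest liver (10, 10, 9 and 7 livers). Mmp12 is the highest and Mmp9 the lowest in all 4 groups, and Mmp19 alone has its lowest median in Fc under the HFD and its highest in Fc(mML1)B3 under the standard diet.

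The low genes were covered by few reads. A library held a median of 20 reads of Mmp9 (8 to 60), 40 of Mmp13 (8 to 94) and 63 of Timp1 (20 to 119), against 2736 of Mmp12 (1062 to 5093). On mm10 Mmp12 and Mmp13 share chromosome 9, Mmp19 and Timp3 share chromosome 10, and each of the others lies on a chromosome of its own. Mmp13 (chr9:7272514-7283333, plus strand) and Mmp12 (chr9:7347374-7360461, plus strand) are 64040 bases apart in a row of 10 MMP genes that spans 426.9 kb. The other genes are Mmp2 at chr8:92827328-92853420 (plus), Mmp9 at chr2:164948219-164955849 (plus), Mmp14 at chr14:54431604-54441258 (plus), Mmp19 at chr10:128790910-128800824 (plus), Timp1 at chrX:20870166-20874737 (plus), Timp2 at chr11:118301061-118355411 (minus) and Timp3 at chr10:86300412-86349505 (plus). The counts cover all annotated exons of a gene, untranslated parts included. Timp1 lies within Syn1 and Timp3 within Syn3, each on the other strand and with no exon bases shared. Mmp19 shares exon bases with Tmem198b on the other strand, and since the counting ignored strand, reads there cannot be assigned to either.

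Genes of the AP-1 family (Jun, Fos and their relatives) encode factors known to bind the word TGAGTCA and to act on MMP genes. RefSeq promoters of 300 bases (GRCm38.p6), from 250 before the transcription start to 50 after it, were at hand for 6 of the 9 genes. Of these, 2 held the word on either strand (TGAGTCA or TGACTCA), namely Mmp12 and Mmp13, and 5.2% of the 32851 promoters in the table held it. A second Mmp12 promoter in the table, whose start lies 2977 bases upstream, held none. The 120 bases just before the transcription start are shown for these and for Timp2 and Timp3, the TIMPs that moved together most closely from liver to liver, 5′ to 3′ on the gene's strand with the AP-1 word in capitals.
Mmp12 (chr9:7347254-7347373, plus strand): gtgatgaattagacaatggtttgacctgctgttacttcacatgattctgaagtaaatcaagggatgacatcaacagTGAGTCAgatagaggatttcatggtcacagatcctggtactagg
Mmp13 (chr9:7272394-7272513, plus strand): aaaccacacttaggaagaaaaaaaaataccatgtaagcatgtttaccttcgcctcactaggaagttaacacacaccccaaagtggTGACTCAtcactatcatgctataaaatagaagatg
Timp2 (chr11:118355412-118355531, minus strand): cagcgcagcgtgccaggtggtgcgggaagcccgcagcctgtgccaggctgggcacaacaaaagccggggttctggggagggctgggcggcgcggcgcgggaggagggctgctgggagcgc
Timp3 (chr10:86300292-86300411, plus strand): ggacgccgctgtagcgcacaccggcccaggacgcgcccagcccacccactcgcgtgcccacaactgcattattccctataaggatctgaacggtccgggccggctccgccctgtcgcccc
The word begins 44 bases before the start of Mmp12 and 35 bases before that of Mmp13. It was present in 2.3% of the 32851 windows of 120 bases in the table. The Timp windows were rich in G and C, at 75.0% for Timp2 and 69.2% for Timp3, and the Mmp windows were poor, at 40.8% for Mmp12 and 37.5% for Mmp13, against a median of 54.2% over all windows. A word in this window is a description of the sequence and not a shown site of binding.

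Under the HFD, the question was whether Fc(mML1)B3 shifted the proteinases and their inhibitors relative to Fc. None of the 9 genes passed the test in either direction, with edgeR's quasi-likelihood test at a Benjamini-Hochberg adjusted p below 0.05, whereas 14.8% of the 13299 genes tested did. Of the 9, 2 had an unadjusted p below 0.05 (Mmp12 and Mmp19), DESeq2 called 0 and limma-voom with quality weights called 1 (Mmp2, lower). The fitted log2 fold change was below 0 for 8 of the 9 genes and above 0 for 1, with a median of -0.23 against -0.01 over all genes tested.

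Mmp12 reached 105, 140 and 300.4 CPM (lowest, median, highest) in the 10 Fc livers and 75.7, 115 and 204 CPM in the 10 Fc(mML1)B3 livers. The groups overlapped, but 9 of the 10 Fc(mML1)B3 livers lay below the Fc median and 4 lay below every Fc liver. The log2 fold change was -0.43 ± 0.19 (SE) with a 95% interval of -0.83 to -0.04 and an adjusted p of 0.133 by edgeR. For Mmp2 the Fc livers held 16.1, 31.2 and 64.2 CPM and the Fc(mML1)B3 livers 11.2, 17.1 and 74.1 CPM. In this group 8 of 10 livers were below the Fc median, while mouse 5, at 74.1 CPM, was above every Fc liver. The fitted difference of Mmp2 was -0.53 ± 0.30 (SE) on the log2 scale, with an interval of -1.14 to 0.09 and an adjusted p of 0.239 by edgeR. Mmp19 went the other way, from 27.3, 31.5 and 49.7 CPM in Fc livers to 26.5, 43.4 and 56.5 CPM in Fc(mML1)B3 livers, 8 of which lay above the Fc median. Its log2 fold change was 0.29 ± 0.13 (SE), interval 0.02 to 0.55, with an adjusted p of 0.139 by edgeR.

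The calls of these 3 genes turned on mouse 5 of the Fc(mML1)B3 group. Within its group it had the highest Mmp2 (74.1 CPM), Mmp12 (204 CPM), Timp2 (160.1 CPM) and Timp3 (163.5 CPM), and the lowest Mmp19 (26.5 CPM) and Mmp13 (0.445 CPM). Without it, edgeR called Mmp2 lower (log2 fold change -0.87, adjusted p = 0.0113), Mmp12 lower (-0.55, adjusted p = 0.031) and Mmp19 higher (0.34, adjusted p = 0.0438), against 21.3% of the 13387 genes tested in that fit. No other single library, left out, changed a call of the 9 genes in this comparison. Fc mice 7 and 8 held the 2 highest Mmp9 levels among Fc livers, 2.63 and 3.13 CPM, the highest Mmp13, 5.88 and 3.36 CPM, and Mmp12 levels of 228.5 and 300.4 CPM. With both left out, 0 of the 9 genes were called by edgeR, against 13.7% of the 13474 genes tested in that fit. The log2 fold change of Mmp12 was then -0.17 (edgeR adjusted p = 0.534) and the median over the 9 was 0.02. The part of the neutrophil and macrophage markers in these levels was not tested.

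No TIMP was called. Timp1 was at 1.76, 3.85 and 5.17 CPM in Fc livers and 1.35, 2.77 and 4.36 CPM in Fc(mML1)B3 livers, a log2 fold change of -0.22 with an interval of -0.64 to 0.21. Timp2 (-0.23, interval -0.68 to 0.22) and Timp3 (-0.03, interval -0.37 to 0.30) also had intervals that span 0. Without mouse 5 of the Fc(mML1)B3 group, Timp2 was at -0.43 (edgeR adjusted p = 0.0834) and Timp3 at -0.14 (adjusted p = 0.539). Mmp14 had the narrowest interval, -0.21 to 0.19 around -0.01, so that a change of more than about those sizes is outside it, and without single libraries it ran from -0.05 to 0.05. For Mmp9 (-0.28) and Mmp13 (-0.41) the intervals ran from -0.94 to 0.38 and from -1.09 to 0.27. Both values rest on Fc mice 7 and 8. Mmp9 was at -0.10 without mouse 7, at -0.03 without mouse 8 and at 0.25 without both, and Mmp13 at -0.12, -0.33 and 0.03, while limma-voom put Mmp13 at 0.005. The median of Mmp9 was 0.963 CPM in Fc and 1.06 CPM in Fc(mML1)B3 livers, and that of Mmp13 1.73 and 1.59 CPM.

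**Figure D2:**
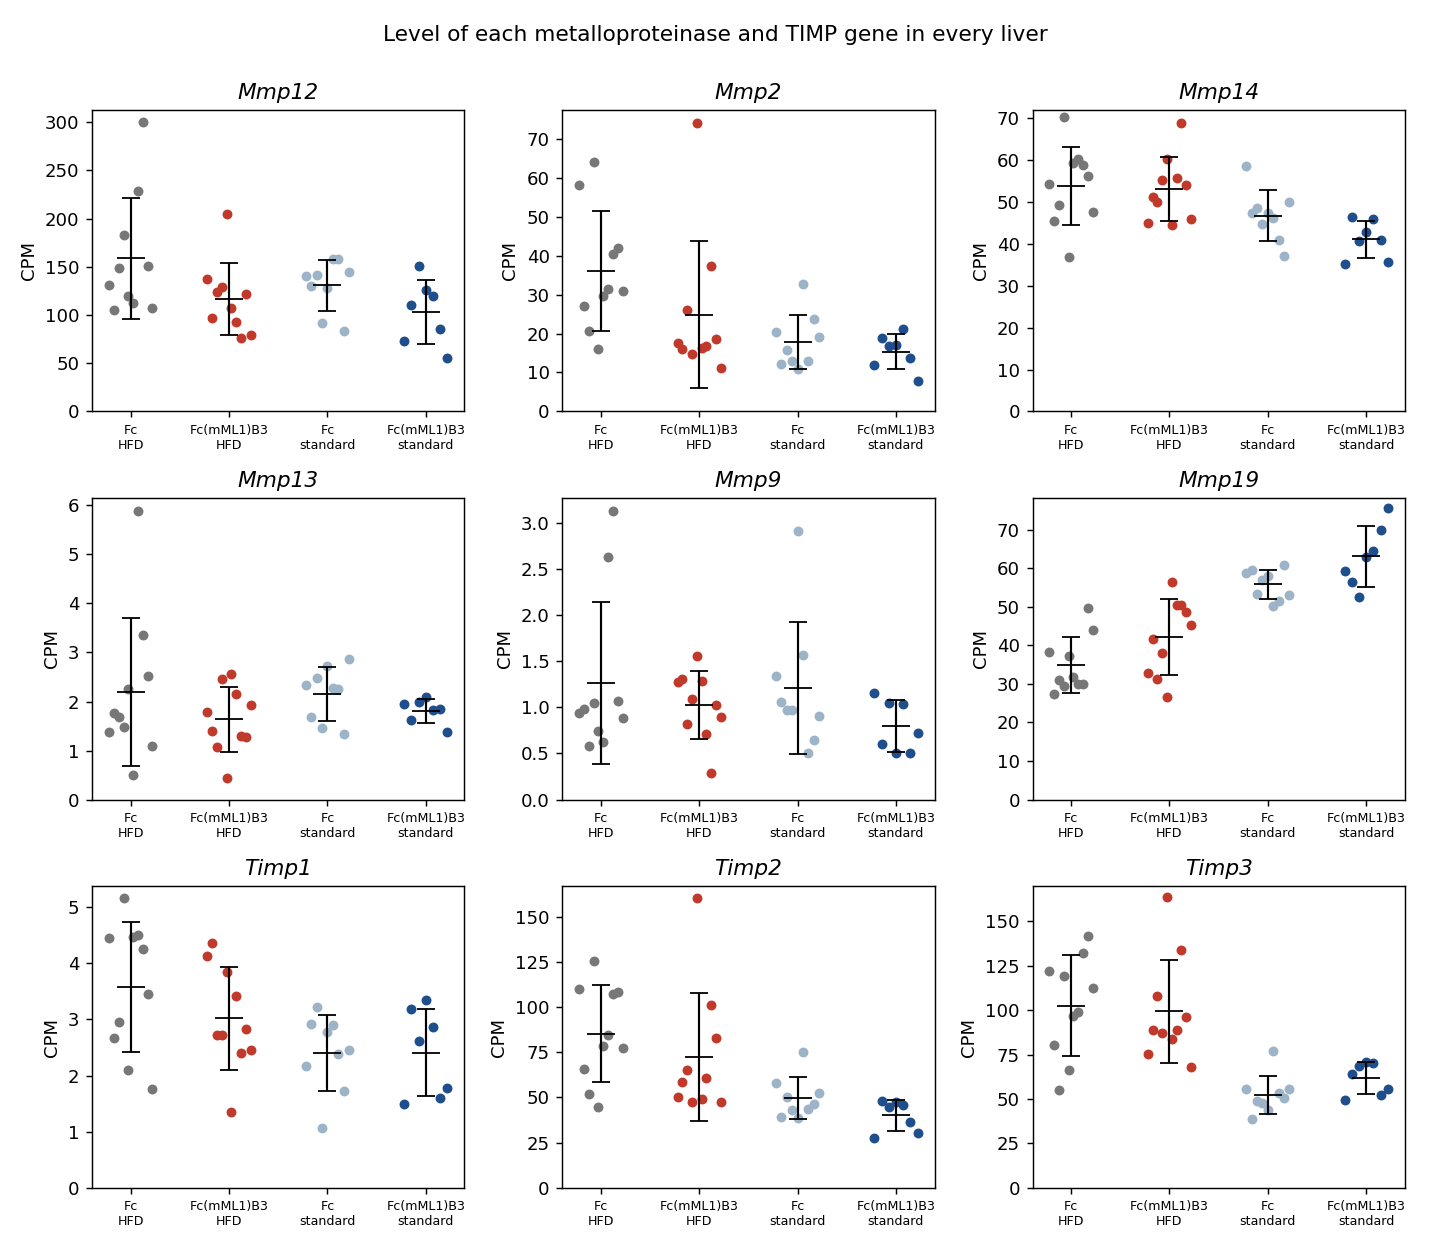
Level of each gene in CPM in every liver; points are mice, and the black bar and whiskers are the mean ± SD of the group (n = 10, 10, 9 and 7). The single high Fc(mML1)B3 point under the HFD for Mmp2 (74.1 CPM), Timp2 (160.1 CPM) and Timp3 (163.5 CPM) is mouse 5, and for Mmp19 every standard diet liver that received Fc lies above every HFD liver that received Fc.

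Other genes of the system were counted from fixed lists. Of 17 other MMP genes, 6 were tested under the HFD and 0 were called by edgeR, with 1 at an unadjusted p below 0.05. Of 15 genes for other MMP inhibitors, activators and carriers, 12 were tested and 0 called, with 3 at an unadjusted p below 0.05. Among 15 tested ADAM and ADAMTS proteinases, relatives that cleave proteoglycans and cell surface proteins, 1 rose. It was Adamts1, 1.45-fold higher (edgeR adjusted p = 0.00665). Of 6 tested AP-1 genes, Junb fell by 0.80 on the log2 scale (edgeR adjusted p = 0.00164) and the other 5 were not called. The Junb level was 19.2, 32.4 and 61.5 CPM in Fc livers and 15.6, 17.1 and 27.1 CPM in Fc(mML1)B3 livers. None of the 10 stellate cell markers and none of the 11 macrophage markers was called by edgeR, with 1 and 6 at an unadjusted p below 0.05 and medians of -0.25 and -0.37. These medians were -0.378 and -0.495 without mouse 5 of the Fc(mML1)B3 group. They were -0.184 and -0.147 without Fc mice 7 and 8. Of 5 tested neutrophil markers 3 fell, Ngp, S100a8 and S100a9, and without Fc mice 7 and 8 the test called 0 of the 5. Over all genes tested 8.14% rose and 6.68% fell, or 7.44% and 6.24% without Fc mice 7 and 8. Without mouse 5 of the Fc(mML1)B3 group, 2 stellate cell markers fell (Des and Pdgfrb), 4 macrophage markers fell (Cd68, Cd9, Gpnmb and Trem2), and 3 T and B cell markers fell (Cd3g, Cd79a and Ms4a1). In the same fit 2 other MMP genes fell (Mmp11 and Mmp23), Adam15 fell, and of the 12 inhibitors, activators and carriers Mug1 and Pcsk6 rose and Cd44 fell. These genes were named after their values were seen, and in that fit 10.5% of all genes tested rose and 10.8% fell. Of the other marker lists, Hnf4a of the 6 hepatocyte markers rose (1.29-fold, adjusted p = 0.0208 by edgeR), and Ms4a1 of the 7 T and B cell markers fell by 0.68 (adjusted p = 0.0429). With each of the 20 libraries left out in turn, the call of Ms4a1 was lost in 14 fits, that of S100a9 in 11 and that of Ngp in 1 (without Fc mouse 8).

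Under the standard diet, the same question was asked in 9 Fc and 7 Fc(mML1)B3 livers. Again 0 of the 9 genes were called by edgeR, against 16.1% of the 13570 genes tested. Of the 9, 4 had an unadjusted p below 0.05 (Mmp14, Mmp19, Timp2 and Timp3), and DESeq2 and limma-voom called 0. The log2 fold change was below 0 for 6 genes and above 0 for 3, with a median of -0.22 against -0.01 over all genes tested.

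Mmp14 was at 37.1, 47.5 and 58.7 CPM in Fc livers and 35.2, 41.0 and 46.5 CPM in Fc(mML1)B3 livers, all 7 of which lay below the Fc median. The groups still overlapped, and the log2 fold change was -0.19 ± 0.08 (SE), interval -0.36 to -0.02, with an adjusted p of 0.117 by edgeR. Timp2 was at 38.7, 46.4 and 75.1 CPM against 27.6, 44.9 and 47.9 CPM, with 3 Fc(mML1)B3 livers below every Fc liver. Its log2 fold change was -0.31 ± 0.14 (SE), interval -0.60 to -0.02, and its adjusted p was 0.137 by edgeR. Timp3 and Mmp19 had values above 0. Timp3 was at 39.0, 50.4 and 76.9 CPM against 49.4, 64.3 and 70.8 CPM, a log2 fold change of 0.23 ± 0.11 (SE), interval 0.00 to 0.46, with an adjusted p of 0.167 by edgeR. For Mmp19 the values were 50.3, 56.9 and 60.8 CPM against 52.6, 63.0 and 75.8 CPM, and 4 of 7 Fc(mML1)B3 livers lay above every Fc liver. Its log2 fold change was 0.17 ± 0.07 (SE), interval 0.03 to 0.31, with an adjusted p of 0.0877 by edgeR.

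The remaining genes had wider or more central intervals. Mmp12 was at 83.7, 140.7 and 158 CPM in Fc livers and 55.5, 111 and 150.4 CPM in Fc(mML1)B3 livers, with a log2 fold change of -0.35 and an interval of -0.70 to 0.01. For Mmp2, 15.8 CPM was the median in Fc and 16.9 CPM in Fc(mML1)B3 livers, and the interval of the log2 fold change ran from -0.68 to 0.23. Timp1 had medians of 2.46 and 2.62 CPM and an interval of -0.44 to 0.45. All 7 Fc(mML1)B3 livers lay below the Fc median of Mmp13 (2.27 CPM), yet none lay below every Fc liver, and the interval was -0.61 to 0.09. The interval of Mmp9 was -1.25 to 0.06 around -0.59, and Fc mouse 5 had its highest level, 2.91 CPM. Without that mouse the log2 fold change was -0.32 (edgeR adjusted p = 0.439).

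Single libraries again moved genes across the threshold of edgeR. Without Fc mouse 6, Timp3 was called higher (0.32, adjusted p = 0.021). Without Fc mouse 8, Mmp14 was called lower (-0.23, adjusted p = 0.0411), and without Fc(mML1)B3 mouse 3, Mmp19 was called higher (0.21, adjusted p = 0.0321). The deposited files carry number series in their names, whose meaning is not given in the sources used here. Under the standard diet all 7 Fc(mML1)B3 libraries and 4 of the 9 Fc libraries share a series. Within it, 0 of the 9 genes were called by edgeR, and over all genes 942 were called, against 2186 with all standard diet libraries. The log2 fold change within it was -0.53 for Mmp2, -0.09 for Mmp14, 0.22 for Mmp19, -0.44 for Timp2 and 0.06 for Timp3. No series held both diets, so series and diet cannot be told apart. Under the HFD no series held both proteins either, so series and protein cannot be told apart there. Against all 10 Fc libraries, Mmp2 was at -0.92 with the 4 Fc(mML1)B3 libraries of one series (mice 1 to 4) and at -0.30 with the other 6, and Mmp19 at 0.07 and 0.42. None of the 9 genes was called in either set. Over all genes, 705 were called with mice 1 to 4, against 1972 with all 10 Fc(mML1)B3 libraries. With fewer libraries and fewer calls, a lack of calls there says little about the 9 genes.

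Several relatives of the 9 genes fell with Fc(mML1)B3 under the standard diet. Of 17 tested ADAM and ADAMTS genes 7 fell and 0 rose, with a median log2 fold change of -0.29, against 7.55% of all genes tested that fell and 8.56% that rose. The smallest p values were those of Adamts9, lower by 0.91 on the log2 scale (edgeR adjusted p = 0.000321), Adamts4, an aggrecanase (-1.19, adjusted p = 0.00569), Adam12 (-0.90, adjusted p = 0.0149) and Adamts2, which trims procollagen (-0.38, adjusted p = 0.0265). Junb, of the 6 tested AP-1 genes, fell by 1.05 (edgeR adjusted p = 0.000186), from 29.7, 39.6 and 56.4 CPM to 13.9, 17.6 and 31.6 CPM. Among 12 tested inhibitors, activators and carriers, Cd44, a surface docking protein of MMP9 and MMP14, fell by 0.31 (edgeR adjusted p = 0.0291), and of 7 other MMP genes 0 were called, with 1 at an unadjusted p below 0.05. Of the 10 stellate cell markers 2 fell, Pdgfrb (-0.51) and Des (-0.36), and of the 11 macrophage markers 2 fell, Gpnmb (-0.53) and Cd9 (-0.36). Sox9 fell by 0.50 among the 5 cholangiocyte markers. With each of the 16 libraries left out in turn, the call of Sox9 was lost in 10 fits, that of Gpnmb in 6, that of Cd44 in 4, that of Adamts2 in 3, that of Des in 2 and that of Cd9 in 1. The summed stellate cell markers ran from 392.3 to 617 CPM in Fc and from 337.1 to 435.5 CPM in Fc(mML1)B3 livers, the summed macrophage markers from 446.6 to 704.9 and from 424 to 569.6 CPM, and their part in the values of the 9 genes was not tested. In bulk tissue, fewer cells of a type and less RNA per cell cannot be told apart.

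**Figure D3:**
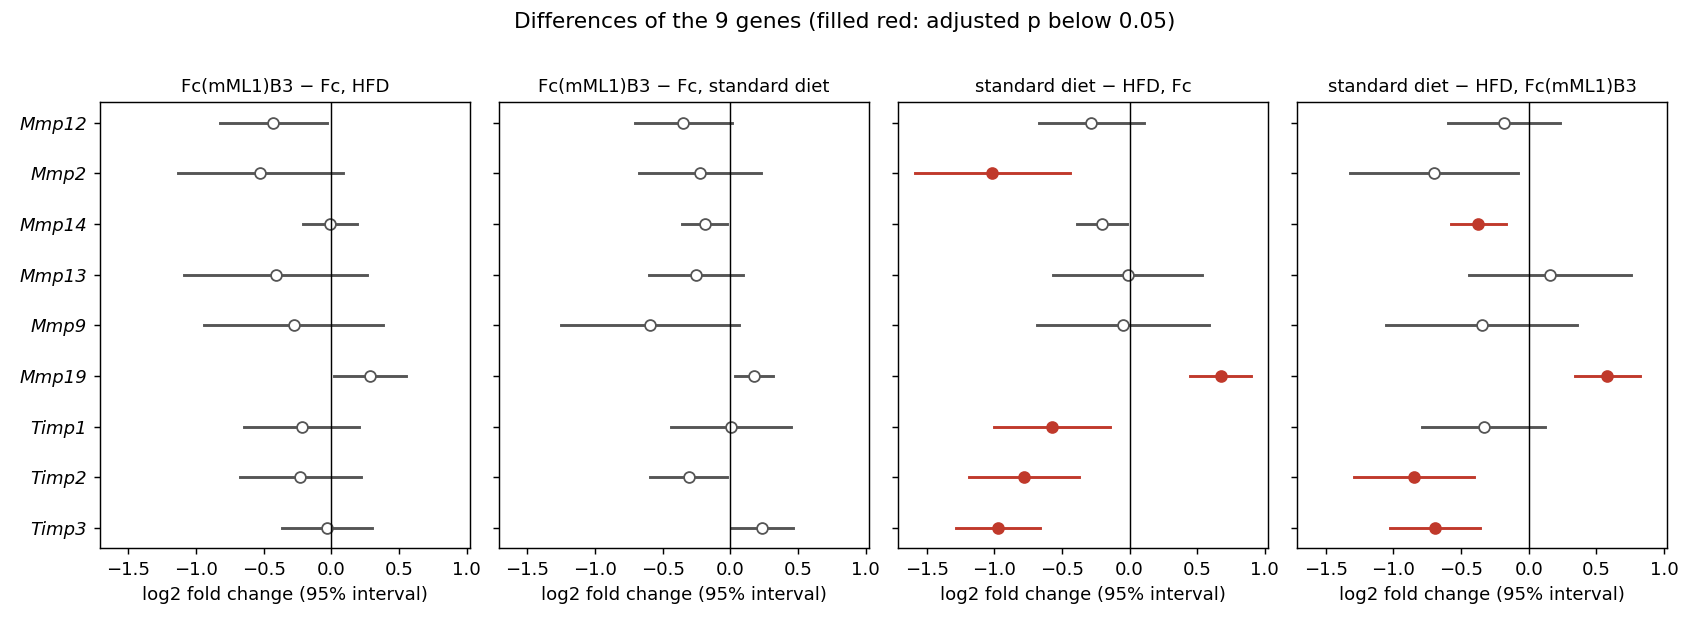
Log2 fold change of each gene with its 95% interval in the 4 comparisons; filled red points passed edgeR's test at an adjusted p below 0.05 and open points did not. The Fc(mML1)B3 comparisons hold 0 filled points, and in both diet comparisons Timp2 and Timp3 lie below 0 and Mmp19 above 0 beyond the threshold.

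The effect of Fc(mML1)B3 was not shown to differ between the diets for any of the 9 genes. The interaction in the fit of all 36 libraries called 0 of the 9, with 0 at an unadjusted p below 0.05, against 9.06% of 14105 genes called by edgeR; DESeq2 and limma-voom also called 0. The estimates ran from -0.30 for Mmp9 to 0.31 for Mmp2, and the interval of Mmp2, -0.52 to 1.15, still allows a sizeable difference. Without mouse 5 of the Fc(mML1)B3 HFD group the Mmp2 estimate was 0.67 (edgeR adjusted p = 0.24), that of Timp2 0.14 and not -0.07, that of Mmp12 0.23 and not 0.10, that of Mmp13 0.07 and not 0.18, and that of Mmp19 -0.15 and not -0.09. Mmp9 was at -0.03 without Fc standard diet mouse 5 and at -0.84 without Fc HFD mice 7 and 8, where Mmp12 was at -0.17 and Mmp13 at -0.28. None of the 9 was called in these fits. Over all genes tested, 10.3% were called without Fc(mML1)B3 HFD mouse 5 and 10.0% without Fc HFD mice 7 and 8.

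The design also sets the diets side by side for each protein. Among Fc livers, 4 of the 9 genes fell from the HFD to the standard diet, against 24.6% of the 14105 genes tested that fell. They were Timp3, Mmp2, Timp2 and Timp1. The gene Mmp19 rose, against 23.3% of the genes tested that rose. Mmp9, Mmp12, Mmp13 and Mmp14 did not pass the test. Over all genes, 3288 rose and 3471 fell with TMM normalisation, and 2523 rose and 4795 fell with upper quartile normalisation, which moved the median of all genes by -0.09 on the log2 scale.

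Timp3 was at 54.8, 105.7 and 141.5 CPM in Fc livers under the HFD and 39.0, 50.4 and 76.9 CPM under the standard diet, where 6 of 9 livers lay below every HFD liver. It fell by 0.97 ± 0.15 (SE) on the log2 scale, 1.96-fold (edgeR adjusted p = 2.98e-06). Mmp2 was at 16.1, 31.2 and 64.2 CPM and then at 10.8, 15.8 and 32.7 CPM, with 5 of 9 standard diet livers below every HFD liver. It fell 2.02-fold (log2 -1.01 ± 0.28 SE, edgeR adjusted p = 0.00343). Timp2 moved from 44.5, 81.6 and 125 CPM to 38.7, 46.4 and 75.1 CPM, and all 9 standard diet livers were below the HFD median. It fell 1.72-fold (log2 -0.78 ± 0.20 SE, edgeR adjusted p = 0.00153). Timp1 went from 1.76, 3.85 and 5.17 CPM to 1.07, 2.46 and 3.22 CPM, again with all 9 livers below the HFD median, and fell 1.49-fold (log2 -0.57 ± 0.21 SE, edgeR adjusted p = 0.0238). The call of Timp1 was the least firm of these. It was lost without Fc mouse 4 under the HFD (adjusted p = 0.0632 by edgeR), without Fc mouse 4 under the standard diet (0.0562), without Fc HFD mice 7 and 8 (0.0763), with libraries thinned to equal depth (0.058) and with the replicate number as a block (0.0922).

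Mmp19 was the single member whose groups did not overlap. Over all 14105 genes, 7.47% had every Fc liver of the standard diet above every Fc liver of the HFD. The Fc livers held 27.3, 31.5 and 49.7 CPM under the HFD and 50.3, 56.9 and 60.8 CPM under the standard diet, 1.6-fold higher (log2 0.68 ± 0.11 SE, edgeR adjusted p = 6.12e-06). Tmem198b, which shares exon bases with Mmp19, had a log2 fold change of 0.08 in the same comparison (edgeR adjusted p = 0.65). Mmp12 had nearly the same median under both diets, 139.9 and 140.7 CPM, and its log2 fold change of -0.28 had an interval of -0.67 to 0.11. Without Fc HFD mice 7 and 8 it was -0.01. Mmp13 (-0.02, interval -0.56 to 0.53) and Mmp9 (-0.05, interval -0.68 to 0.59) had no settled sign. Without those mice they were at 0.43 and 0.49 (edgeR adjusted p = 0.139 and 0.161), and without Fc standard diet mouse 5 Mmp9 was at -0.32 (adjusted p = 0.396). Mmp14 was at 36.9, 55.3 and 70.3 CPM against 37.1, 47.5 and 58.7 CPM, with a log2 fold change of -0.20 (edgeR adjusted p = 0.067). It was called lower with upper quartile normalisation (-0.29, adjusted p = 0.013), and without Fc HFD mouse 2, 5 or 10 or Fc standard diet mouse 1 (-0.23, -0.25, -0.22 and -0.24).

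Among Fc(mML1)B3 livers, which share no mouse with those groups, 3 of the 9 genes fell from the HFD to the standard diet, against 17.9% of the genes tested, and Mmp19 rose, against 20.7%. Over all genes, 2914 rose and 2520 fell, or 2208 and 3799 with upper quartile normalisation. Timp2 was at 47.2, 59.7 and 160.1 CPM under the HFD and 27.6, 44.9 and 47.9 CPM under the standard diet, where 5 of 7 livers lay below every HFD liver. It fell 1.8-fold (log2 -0.85 ± 0.22 SE, edgeR adjusted p = 0.00208). Timp3 was at 67.8, 88.9 and 163.5 CPM and then at 49.4, 64.3 and 70.8 CPM, a 1.61-fold fall (log2 -0.69 ± 0.17 SE, edgeR adjusted p = 0.00104). Mmp14 fell 1.29-fold (log2 -0.37 ± 0.10 SE, edgeR adjusted p = 0.00324), from 44.5, 52.6 and 69.0 CPM to 35.2, 41.0 and 46.5 CPM. Mmp19 rose 1.5-fold (log2 0.58 ± 0.12 SE, edgeR adjusted p = 0.00016), from 26.5, 43.4 and 56.5 CPM to 52.6, 63.0 and 75.8 CPM, with 5 of 7 livers above every HFD liver.

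The other 5 genes were not called in Fc(mML1)B3 livers. Mmp2 had medians of 17.1 and 16.9 CPM, and its fitted log2 fold change of -0.70 (edgeR adjusted p = 0.0676) was -0.36 (adjusted p = 0.287) without mouse 5. It was called lower without mouse 10 of the HFD group (-0.79, adjusted p = 0.038) and with upper quartile normalisation (-0.80, adjusted p = 0.0397). Timp1 was at -0.33 (interval -0.79 to 0.12), Mmp12 at -0.18 (interval -0.60 to 0.24), Mmp9 at -0.35 (interval -1.05 to 0.36) and Mmp13 at 0.16 (interval -0.44 to 0.76). Without mouse 5 Mmp12 was at -0.06 and Mmp13 at 0.04.

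The inhibitors of the wider protease system did not all go with the TIMPs between the diets. In Fc livers 6 of 12 tested inhibitors, activators and carriers rose and 3 fell (5 and 2 without HFD mice 7 and 8), against 23.3% and 24.6% of all genes tested. In Fc(mML1)B3 livers 5 rose and 3 fell (4 and 2 without mouse 5), against 20.7% and 17.9%. The broad proteinase inhibitors of the alpha-macroglobulin family were among those that rose. Mug2 was 1.67-fold higher in Fc livers (edgeR adjusted p = 1.02e-08) and 1.48-fold higher in Fc(mML1)B3 livers (6.58e-06). Pzp was 1.71-fold and 1.5-fold higher (5.65e-08 and 2.81e-05), and Mug1 1.84-fold and 1.38-fold (4.73e-07 and 0.00546). Mug1 and Mug2 are near-identical copies, and since reads with several alignments were not counted, the split between them is uncertain. Lrp1, an endocytic receptor that clears proteinases and their inhibitor complexes, rose 1.35-fold and 1.33-fold (edgeR adjusted p = 2.53e-06 and 2.14e-05). Lcn2, a carrier of MMP9, fell by 2.04 and 1.76 on the log2 scale (adjusted p = 0.000148 and 0.00246).

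Of 7 other MMP genes tested, 4 fell and 0 rose in Fc livers, namely Mmp23 (log2 -1.18), Mmp11 (-1.08), Mmp7 (-1.46) and Mmp17 (-0.66), of which the last 2 were not called without Fc HFD mice 7 and 8 (adjusted p = 0.0673 and 0.0835 by edgeR). The call of Mmp17 was also lost in 10 of the 19 fits that left out 1 library. In Fc(mML1)B3 livers Mmp23 fell (-0.96) and Mmp15 rose (0.40). Among the 17 tested ADAM and ADAMTS genes, 4 rose and 5 fell in Fc livers, shares near the 23.3% and 24.6% of all genes tested, and 3 rose and 6 fell in Fc(mML1)B3 livers (3 and 4 without mouse 5), against 20.7% and 17.9%. Adam9 rose in both (0.35 and 0.27) and Adamts2 fell in both (-0.72 and -0.79). Of the 7 tested AP-1 genes, Jun and Atf3 fell in both and Jund rose in Fc livers, while Fos and Fosl2 fell in Fc(mML1)B3 livers.

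Cell type markers also differed between the diets. Over all genes tested, 24.6% fell and 23.3% rose in Fc livers, and 17.9% fell and 20.7% rose in Fc(mML1)B3 livers. Without Fc HFD mice 7 and 8 the shares in Fc livers were 20.5% and 23.2%. Without Fc(mML1)B3 HFD mouse 5 those in Fc(mML1)B3 livers were 16.9% and 19.7%. Of the 10 stellate cell and myofibroblast markers, 6 fell in Fc livers and 5 in Fc(mML1)B3 livers, Col1a1 by 1.18 and 1.08 and Acta2 by 1.37 and 2.11 on the log2 scale. In Fc(mML1)B3 livers without mouse 5, 4 of the 10 fell and Acta2 fell by 1.52. The highest Acta2 level of that HFD group was 36.5 CPM, against a median of 5.94 CPM. Of the 11 macrophage markers 6 and 4 fell (3 in Fc livers without HFD mice 7 and 8, and 3 in Fc(mML1)B3 livers without mouse 5), Cd68 by 0.75 and 0.66 and Trem2 by 0.75 and 0.68. The summed stellate cell markers had medians of 697.8 CPM in Fc livers and 500.8 CPM in Fc(mML1)B3 livers under the HFD, and of 444.2 and 384.2 CPM under the standard diet. The summed macrophage markers had medians of 833 and 712.3 CPM under the HFD and 645.9 and 515.9 CPM under the standard diet, and the summed hepatocyte markers 98330 and 113800 CPM and then 116500 and 115800 CPM. The part of these markers in the fall of Mmp2, Timp1, Timp2, Timp3 and Mmp14 and in the rise of Mmp19 was not tested. Of the 7 T and B cell markers 6 fell in Fc livers (5 without HFD mice 7 and 8), and in Fc(mML1)B3 livers 2 fell and 1 rose (1 and 1 without mouse 5). Of those 3 in Fc(mML1)B3 livers, the calls of Cd79a, which rose, and of Cd3e, which fell, were each lost in 10 of the 17 fits that leave out 1 library (highest edgeR adjusted p = 0.166 and 0.124). Of the 5 cholangiocyte markers Epcam fell in Fc livers (-1.03), and Krt19 (-1.53, or -0.82 without mouse 5) and Sox9 (-0.86) fell in Fc(mML1)B3 livers. The summed cholangiocyte markers had medians of 67.11 and 51.33 CPM under the HFD and 41.05 and 32.49 CPM under the standard diet. Of the 4 mesothelial markers, a list that also holds Krt19, Wt1 fell in both (-0.87 and -1.22), and its call in Fc livers was lost without HFD mouse 1 (edgeR adjusted p = 0.055). The hepatocyte marker Hnf4a rose in Fc livers (0.61, edgeR adjusted p = 1.98e-06). Of 7 tested neutrophil markers Retnlg fell in both (-1.22 and -1.29). Of the 7 endothelial markers Kdr rose in both (0.23 and 0.30) and Vwf fell in Fc livers (-0.35), and without mouse 5 the Fc(mML1)B3 count was 1 higher and 3 lower. In Fc livers the Vwf call was lost in 7 of the 19 fits that leave out 1 library and without HFD mice 7 and 8 (edgeR adjusted p = 0.051), and the Kdr call in 1 of the 19 (adjusted p = 0.0686), the fit without standard diet mouse 4. The 1 tested adipocyte marker, Cfd, fell in Fc(mML1)B3 livers (-1.66). The part of these markers too was not tested.

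Ratios of a proteinase to an inhibitor, in RPKM within a liver, are descriptions of RNA only. Mmp14 per Timp2 had a median of 0.916 (0.690 to 1.32) in Fc livers under the HFD, 1.24 (0.524 to 1.63) in Fc(mML1)B3 livers under the HFD, 1.35 (0.858 to 1.71) in Fc livers under the standard diet and 1.40 (1.25 to 1.78) in Fc(mML1)B3 livers under the standard diet. The groups overlapped throughout. The 0.524 was that of mouse 5, and without it the Fc(mML1)B3 livers under the HFD ran from 0.909 to 1.63 with a median of 1.26. Mmp2 per Timp2 lay between 0.268 and 0.632 in all 36 livers, although Mmp2 itself ranged from 7.77 to 74.1 CPM. Its medians were 0.469, 0.386, 0.374 and 0.447 in the same order of groups. Mmp12 per Timp1 had medians of 11.6, 9.42, 13.5 and 10.3 in the same order of groups.

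How the genes varied from liver to liver within groups was described with correlations of log2 CPM over the 36 livers after the group means were removed. Of the 36 pairs of the 9 genes, 16 had an adjusted p below 0.05 by permutation within groups, 14 of them positive. All 16 also passed by rank and had the same sign within each diet, but not all were of like size. The r of Mmp9 and Mmp12, 0.53, was 0.78 in HFD and 0.10 in standard diet livers. Without the 2 livers farthest from the median of the first gene, that of Mmp2 and Mmp12 went from 0.45 to 0.30. That of Mmp12 and Timp3 went from 0.43 to 0.26. Mmp2, Timp2 and Timp3 formed the closest set. Pearson's r of Mmp2 and Timp2 was 0.92 and Spearman's rho 0.90, that of Timp2 and Timp3 was 0.91 and 0.92, and that of Mmp2 and Timp3 was 0.86 and 0.86, each with a permutation p of 1e-05, the smallest that 100000 resamples can give, and an adjusted p of 0.00012. Without the 2 livers farthest from the median of the first gene, r was 0.89, 0.89 and 0.81. The r of Mmp14 to Timp2 was 0.71 and the rho 0.71 (permutation p = 2e-05 for each, adjusted 0.00018), and 0.63 without the 2 farthest livers. Its r to Mmp2 was 0.59 (permutation p = 0.0004), with 0.70 in HFD and 0.33 in standard diet livers, and to Timp3 0.58 (permutation p = 0.00094), with 0.68 in HFD and 0.29 in standard diet livers.

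Mmp12 was tied to Timp1 with an r of 0.58 (permutation p = 0.00046, adjusted 0.00276) and a rho of 0.64 (permutation p = 0.00015, adjusted 0.00108), and 0.58 without the 2 farthest livers. The r was 0.47 in the 20 HFD livers and 0.75 in the 16 standard diet livers. The negative pairs were both of Mmp19. Its r was -0.55 to Mmp12 (permutation p = 0.00098, adjusted 0.00441) and -0.44 to Timp1 (permutation p = 0.0106, adjusted 0.0273), with rho -0.61 (permutation p = 0.0002, adjusted 0.0012) and -0.46 (permutation p = 0.00955, adjusted 0.0246), and -0.45 and -0.46 without the 2 farthest livers. Mmp12 and Mmp13, the neighbours on chromosome 9 that both hold an AP-1 word, had an r of 0.28 (permutation p = 0.131, adjusted 0.209) and a rho of 0.33 (permutation p = 0.0566, adjusted 0.102). That r was 0.47 without the 2 farthest livers, 0.20 in HFD and 0.66 in standard diet livers. All points share tissue, assay and the earlier CDAHFD, and the part of the cell type markers in the correlations was not tested.

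**Figure D4:**
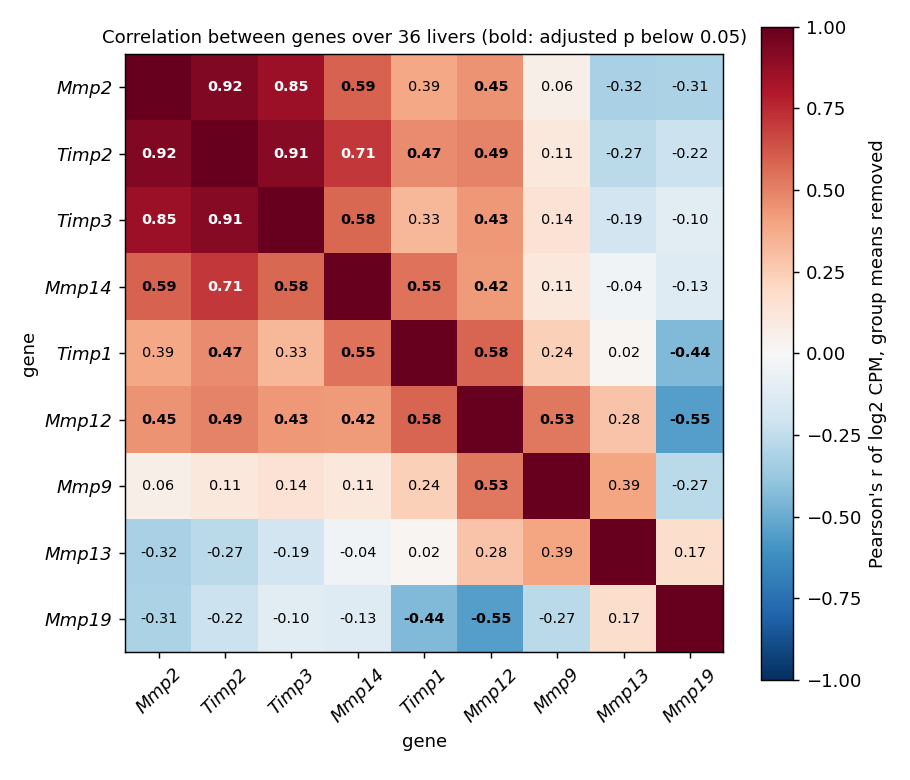
Pearson's r between the 9 genes over 36 livers, of log2 CPM with group means removed; red is positive, blue negative, and bold values have an adjusted permutation p below 0.05. Mmp2, Timp2 and Timp3 form a block with r from 0.86 to 0.92, and the negative bold values, -0.55 and -0.44, are those of Mmp19 with Mmp12 and Timp1.

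The genes of the whole table most like the members were searched among 14105 genes, as a description with no test. Mmp2 was most like Aebp1 (r = 0.95), Itga8 (0.94) and Mxra8 (0.94), and Timp3 most like Itga8 (0.92), Col4a5 (0.92) and Timp2 (0.91). Itga8 encodes an integrin subunit found on stellate cells and Col4a5 a basement membrane collagen chain. Mmp12 was most like Lgals3 (0.93), the gene of galectin-3, Anxa1 (0.89) and Capg (0.89). Timp1 was most like Tyrobp (0.78), a signalling adaptor of myeloid cells, Fabp5 (0.76) and Fxyd5 (0.75). Mmp13 was most like Aldh1b1 (0.69), Ube2j1 (0.68) and Itih2 (0.65), but within the standard diet the r to Aldh1b1 was 0.06 and that to Itih2 0.15.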

How the data were processed

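The deposited values are read counts per gene, which the authors made by trimming (fastp), removing ribosomal RNA (Bowtie2 2.4.5), aligning to mm10 (STAR 2.7.10a) and counting with featureCounts of Subread 2.0.3. Each end of a pair was counted as a read, strand was ignored and reads with several alignments were left out. Groups came from the sample titles. The 20 HFD and 16 standard diet libraries entered separate fits in edgeR 4.0.16 (R 4.3.3) with TMM normalisation and its quasi-likelihood test, after filterByExpr. A gene was called at a Benjamini-Hochberg adjusted p below 0.05 over all genes tested. Diet contrasts and the interaction came from a fit of all 36 libraries. CPM and RPKM used TMM factors over the 36 libraries, and log2 CPM a prior count of 2. Each mouse is a replicate. The fits were tested on simulated data beforehand.

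The alternatives were DESeq2 1.42.0, limma-voom (limma 3.58.1) with quality weights, upper quartile normalisation, no filter, equal depth (14949035 reads), a replicate block, other thresholds, the file number series, the fit of all 36 libraries, each library left out in turn, and, added after seeing the data, Fc HFD mice 7 and 8 left out together. The 9 genes and the lists were chosen with earlier results of these data known. Named were all 9 genes, up to 4 called genes with the smallest p of each other list and comparison, and the 3 genes most like each of Timp1, Mmp2, Mmp12, Mmp13 and Timp3. Lcn2 in Fc livers and Mug1 in Fc(mML1)B3 livers (between the diets) and Tmem198b fall outside that rule and were chosen after their values were seen. As no member fell below the filter, the permutation test planned for such genes was not needed. Adipocyte and pancreatic acinar markers had 1 and 0 tested genes.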

Additional observations from a re-analysis of the deposited data

Results flagged for a closer look

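In 3 of the 36 sets of 1 gene in 1 group, a single liver lay far from the rest of its group by Dixon's test on log2 CPM, which chance alone flags in about 1 of 20 sets. All 3 were the lowest liver among those that received Fc(mML1)B3 under the HFD, and each rests on few reads. Mmp9 was at 0.287 CPM in mouse 8, against a group median of 1.06 CPM. Mmp13 was at 0.445 CPM in mouse 5, against a median of 1.59 CPM. Timp1 was at 1.35 CPM in mouse 6, against a median of 2.77 CPM. On CPM itself none of these 3 values passed, and 6 others from 4 livers did, each the highest of its group. They were, in HFD livers, Fc(mML1)B3 mouse 5 for Mmp2 (74.1 CPM), Mmp12 (204 CPM) and Timp2 (160.1 CPM), Fc mouse 7 for Mmp13 (5.88 CPM), and in standard diet livers Fc mouse 5 for Mmp9 (2.91 CPM) and Fc mouse 6 for Timp3 (76.9 CPM).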

How the results depend on the processing

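Of 3523 alternative fits of single named genes, 3257 kept their direction and their side of the threshold, 191 lost the call, 14 gained one and 61 changed sign, in which neither value was called. Under the HFD 1972 genes were called in either direction, against 3039 with limma-voom (with 1 of the 9 genes, Mmp2, lower), 3133 in the fit of all 36 libraries, 178 with a fold above 2 at an adjusted p below 0.1, and 705 with mice 1 to 4 of the Fc(mML1)B3 group. Upper quartile normalisation moved the HFD split from 1083 higher and 889 lower to 865 and 1075. The standard diet comparison called 2186 genes, against 785 in the fit of all 36 libraries, 320 with a fold above 1.5, and 942 within 1 file number series. From the HFD to the standard diet in Fc(mML1)B3 livers, upper quartile normalisation called 3799 genes lower, not 2520. The interaction called 1278 genes, or 2026 with limma-voom. Pairs of the 9 genes with an adjusted p below 0.05 numbered 16, or 8 in HFD and 7 in standard diet livers, where fewer samples entered.

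The sign changes fell on members other than Mmp2 and Mmp19. Under the HFD, Mmp13 was 0.005 with limma-voom, Mmp14 0.001 at equal depth, Timp1 0.005 with mice 1 to 4, and Mmp14 0.039 and Timp3 0.057 with mice 5 to 10 of the Fc(mML1)B3 group. With Fc HFD mice 7 and 8 left out, chosen after seeing the data, Mmp9, Mmp13, Mmp14 and Timp3 were 0.25, 0.028, 0.034 and 0.019 there, Mmp9 and Mmp13 0.49 and 0.43 between the diets in Fc, and the interactions of Mmp12 and Mmp13 -0.17 and -0.28. Under the standard diet Timp1 was -0.003 with upper quartile normalisation. With limma-voom, Mmp9 and Mmp13 between the diets in Fc were 0.063 and 0.42, and the interactions of Mmp13 and Timp2 -0.24 and 0.13. With 1 library left out, the ranges that cross 0 were -0.052 to 0.048 for Mmp14 and -0.135 to 0.031 for Timp3 under the HFD, -0.087 to 0.095 for Timp1 under the standard diet, -0.32 to 0.20 for Mmp9 and -0.13 to 0.27 for Mmp13 between the diets in Fc, and -0.059 to 0.23, -0.10 to 0.29 and -0.16 to 0.14 for the interactions of Mmp12, Mmp13 and Timp2.

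Replicate numbers did not pair the mice, since correlations of same-numbered livers ran from below 0 to above 0. With the replicate block, the HFD comparison called 1294 genes, the standard diet comparison 1302 and the interaction 703. Under the block Timp1 was -0.071 under the standard diet, Mmp9 and Mmp13 between the diets in Fc were 0.28 and 0.15, and the interactions of Mmp12 and Mmp13 -0.23 and -0.007, none of them called. Among the 9 genes the block changed 1 call, that of Timp1 between the diets in Fc livers (-0.58, adjusted p = 0.0922).

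With each library left out in turn, genes called under the HFD ran from 1555 to 2848, with 0 to 1 of the 9 genes higher and 0 to 2 lower. Under the standard diet 1730 to 2230 genes were called, with 0 to 1 of the 9 higher and 0 to 1 lower. Between the diets 3 to 5 of the 9 were lower in Fc and 3 to 4 in Fc(mML1)B3 livers. Over all genes, 2961 to 3544 were lower in Fc and 2167 to 2595 in Fc(mML1)B3 livers. Mmp9, Mmp13 and Timp1 rest on few reads.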
